A study of Mus musculus with 8 samples.

Results

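The genes described here restrain the ERK kinase pathway: the phosphatase genes Dusp6, Dusp5, Dusp4 and Dusp1, the Sprouty genes Spry1, Spry2 and Spry4, and the Spred genes Spred1 and Spred2. They are 9 of 21887 protein-coding genes, and were examined for SMAD4 peaks whose summit lay inside the gene body or within 100 kb of it on mm10. This chose 31 of 4333 peaks after BMP9/10 and 9 of 1133 peaks without it. The genes were selected on these same measured values, the presence, number and fold enrichment of their peaks in both lists, so their counts and heights are a description, and no test was run on them.

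The data are SMAD4 chromatin immunoprecipitation sequencing (ChIP-seq) of MS1, an established, immortalised mouse endothelial cell line that came from pancreatic islets. SMAD4 IP libraries (2) and input DNA libraries (2) came from cells given BMP9/10 recombinant protein at 1 ng/mL, and the same numbers came from cells given fresh medium alone. Both had first gone 24 h without serum. BMP9 and BMP10 bind ALK1 on endothelial cells, and SMAD4 joins the SMADs that BMP and TGF-beta receptors activate. The stimulated IP titles also contain "KD" without an explanation, so stimulated values below mean those of libraries with that label. The authors merged the 2 IP libraries of each condition before calling peaks, with 41044888 IP tags in the stimulated and 52971023 in the unstimulated list. Every value is therefore that of a pool, without replicate error, and a difference between the lists has no replicate check. RNA was not measured here. Of 10 endothelial marker genes, 9 had a stimulated and 6 an unstimulated peak within 100 kb, and Tie1 had none in either list. Among markers of other cells, the stimulated and unstimulated lists had peaks at 2 and 2 of 3 leukocyte genes, 2 and 0 of 3 fibroblast genes, and 1 and 0 of 4 pancreatic islet genes. Of all protein-coding genes, 36.5% had a stimulated and 13.1% an unstimulated peak within 100 kb. Binding near a gene is not its expression, so these counts do not identify the cells.

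ERK is activated when growth factor receptors, such as those for VEGF and FGF in endothelium, switch on RAS and the kinases below it. The pathway is limited by genes that it induces itself. DUSP6 removes the activating phosphates from ERK in the cytoplasm and DUSP5 does so in the nucleus, while DUSP4 and DUSP1 are nuclear phosphatases that also act on the related kinases JNK and p38. Sprouty and Spred proteins act further up, between the receptor and these kinases, and Spred proteins bring the RAS inactivator neurofibromin to the membrane.

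Stimulated peaks overlapped, at least in part, the promoters of 4 of the 7 genes that the RefSeq promoter table holds, namely Dusp6, Dusp5, Spry1 and Spred2. The table lists the 250 bases before and the 50 after a start site (GRCm38.p6, the assembly behind mm10). The promoter bases that lie before the start site and under the stimulated peak are shown here because they are the parts of these promoters over which a stimulated peak was called. The Dusp1 peak, 133 bp after its start site, does not reach the table's window. All are on the plus strand, written 5′ to 3′. Capitals mark GTCT, the core of the SMAD-binding element, and GGCGC, the core of the GC-rich element bound by BMP-activated SMADs, on either strand (AGAC and GCGCC are the same motifs on the other strand).
Dusp6 promoter, chr10:99262981-99263230: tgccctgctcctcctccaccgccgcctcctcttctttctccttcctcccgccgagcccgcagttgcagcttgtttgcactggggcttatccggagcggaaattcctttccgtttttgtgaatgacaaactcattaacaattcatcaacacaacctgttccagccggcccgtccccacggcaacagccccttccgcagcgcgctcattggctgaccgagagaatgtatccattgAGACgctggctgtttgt
Dusp5 promoter, chr19:53528895-53529088: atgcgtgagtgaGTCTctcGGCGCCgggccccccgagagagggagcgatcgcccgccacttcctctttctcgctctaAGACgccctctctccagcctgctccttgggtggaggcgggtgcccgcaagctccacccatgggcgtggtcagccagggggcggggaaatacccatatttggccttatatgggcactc
Spry1 promoter, chr3:37639768-37639914: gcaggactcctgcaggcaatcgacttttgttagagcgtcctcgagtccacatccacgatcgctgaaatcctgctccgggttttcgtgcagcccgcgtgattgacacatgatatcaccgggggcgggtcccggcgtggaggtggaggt
Spred2 promoter, chr11:19924192-19924266: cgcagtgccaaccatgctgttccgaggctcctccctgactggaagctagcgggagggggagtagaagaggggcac

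The Dusp5 window held both motifs beside the summit. Its first GTCT match began 4 bases from the summit, and the longer element GGCGCC, which contains GGCGC on both strands, began 3 bases from it, with a gap of 3 bases between the motifs. GGCGCC was found in 8.55% of 21263 promoters of protein-coding genes over the same bases, the shorter GGCGC in 31.4% and GTCT in 74.6%. The Dusp6 window held 1 GTCT match, 197 bases from the summit, and no GGCGC. GTCT was present in 81.6% and GGCGC in 40.6% of promoters over those bases. Neither motif was found in the Spry1 window (63.2% and 30.5% of promoters held them) or in the Spred2 window (43.3% and 12.4%). A missing match says only that these letters are not in the window, which can be a part of the peak. At Spred2 the window held 75 bases of a peak 159 bp wide.

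GGAA, the core of the sites of ETS factors, which ERK phosphorylates, had 6 matches in the Dusp6 window. As many or more stood in 8.87% of promoters over the same bases. The nearest began 5 bases from the summit of the stimulated peak. Dusp5 had 2 matches, which 64.2% of promoters equalled or passed, Spred2 had 2 (20.7%) and Spry1 had 0. The AP-1 motif TGANTCA and the E-box CACGTG were in none of the 4 windows. The looser E-box CANNTG, which contains CACGTG, had 1 match each at Dusp6 and Spry1 (in 62.8% and 44.5% of promoters) and none at Dusp5 or Spred2. All motifs were searched on both strands. The 7 promoters had between 56.0% (Spred2) and 70.8% (Spred1) G or C in the 250 bases before the start site, against a median of 55.6% over all promoters.

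Dusp6 had the peak of highest fold enrichment near the 9 genes. Its gene body covers 4.26 kb of chromosome 10 (99263231 to 99267489, plus strand), and 6 stimulated and 2 unstimulated summits lay around it. None lay inside the gene. Dusp6 was the nearest protein-coding gene to all of them, and the next, Poc1b, was 44.1 kb or more away from each. Of all protein-coding genes, 0.864% had 6 or more stimulated peaks within 100 kb. The stimulated summits spanned 26.8 kb.

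**Figure D1:**
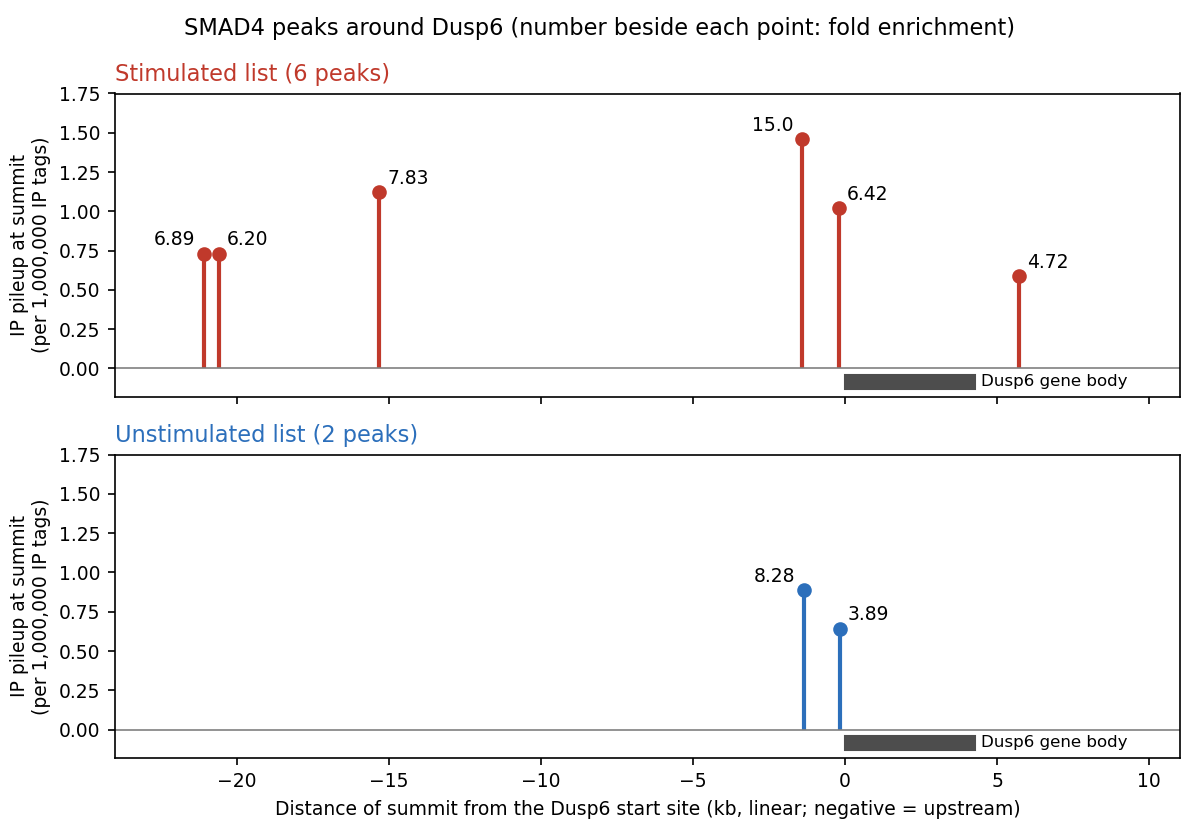
SMAD4 peaks around Dusp6, stimulated above and unstimulated below. The horizontal axis is the distance of each summit from the start site in kb, the vertical axis is the IP pileup per 1000000 IP tags, the grey bar is the gene body, and the number at each point is the authors' fold enrichment. Stimulated summits at 1.46 and 1.02 stand beside lower unstimulated ones at 0.887 and 0.642, and the other 4 stimulated summits have no unstimulated counterpart.

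The tallest site lay 1.43 kb upstream of the start site. The stimulated peak (99261378 to 99262137) was 760 bp wide and had a pileup of 60 IP tags, or 1.46 per 1000000 IP tags. The unstimulated peak there (99261507 to 99261969) was 463 bp wide and had 47 tags, or 0.887 per 1000000. Pileup counts the extended tags that cover a summit. The authors' fold enrichment, pileup plus 1 over local background plus 1, was 15.0 in the stimulated and 8.28 in the unstimulated list, which ranked it 15 and 21 within those lists. The ratio of pileups per IP tag was 1.65 (95% interval 1.11 to 2.47, for counting error only). Local background per tag was 0.825 times as high in the stimulated list there, so the ratio of fold enrichments came to more than that of pileups. The summits were 67 bp apart.

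The second shared site of Dusp6 was the promoter peak whose sequence is given above. In the stimulated list it ran from 99262938 to 99263249, with its summit 214 bp before the start site, 42 tags (1.02 per 1000000) and a fold enrichment of 6.42. The unstimulated peak (99262976 to 99263173, summit 186 bp before the start site) had 34 tags (0.642 per 1000000) and a fold enrichment of 3.89. The ratio of pileups per tag was 1.59 and its counting interval (0.990 to 2.58) includes 1. The 2 sites are 1.21 kb apart from summit to summit in the stimulated list.

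The other 4 stimulated peaks of Dusp6 had no unstimulated counterpart. A pair of summits 494 bp apart lay 21.1 and 20.6 kb upstream (99241988 to 99242230 and 99242395 to 99242745), each with 30 tags (0.731 per 1000000), and their fold enrichments were 6.89 and 6.20. Whether they are separate sites was not tested. The peak 15.3 kb upstream (99247717 to 99248046) had 46 tags (1.12 per 1000000) and 7.83. This made it taller than the promoter peak. The peak past the 3′ end, 1.44 kb from the gene body (99268575 to 99269006), was the weakest, with 24 tags (0.585 per 1000000) and 4.72. Outside the 100 kb limit, Dusp6 was also nearest to a shared pair 142 kb downstream, with 28 stimulated and 25 unstimulated tags (0.682 and 0.472 per 1000000). A stimulated peak without a counterpart lay 156 kb downstream (27 tags).

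Dusp5 had 7 stimulated and 3 unstimulated peaks, and was nearest to 5 and 2 of them. Its gene body covers 12.7 kb of chromosome 19 (53529145 to 53541809, plus strand). The peak 13.4 kb past the 3′ end (stimulated 53555080 to 53555478, unstimulated 53555196 to 53555395) had 61 stimulated and 30 unstimulated tags (1.49 and 0.566 per 1000000). Its ratio of 2.62 (1.67 to 4.21) was the highest of the shared sites near the 9 genes, and 99.7% of all shared pairs had a ratio as high or lower. Local background per tag was close to equal there (ratio 1.05). The peak 21.5 kb upstream (stimulated 53507536 to 53507693) had 50 stimulated and 34 unstimulated tags (1.22 and 0.642 per 1000000), and a ratio of 1.90 (1.20 to 3.03). Its stimulated fold enrichment of 8.50 was the highest at Dusp5, against 3.89 unstimulated.

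Dusp5 also had stimulated peaks at and inside its 5′ end that the unstimulated list lacked. The promoter peak shown above (53528868 to 53529088) had its summit 234 bp before the start site, with 24 tags (0.585 per 1000000) and a fold enrichment of 3.57. A peak 984 bp after the start site (53530064 to 53530196) had 25 tags and 5.12. Another, 17.5 kb upstream, had 20 tags and 3.50. These 3 had lower pileups than both shared sites that were nearest to the gene. The remaining peaks, 77.6 kb (stimulated) and 76.5 kb (both lists) upstream, were nearest to Smndc1.

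Dusp4, on chromosome 8 (34807610 to 34819894), had 3 stimulated peaks and 1 unstimulated one, all nearest to it. The shared site lay 50.5 kb from the gene body, toward lower coordinates (stimulated 34757002 to 34757272). It had 35 stimulated and 28 unstimulated tags (0.853 and 0.529 per 1000000), with a ratio of 1.61 (0.953 to 2.75). Fold enrichment was 7.35 in the stimulated and 3.22 in the unstimulated list. Local background per tag was 0.629 times as high in the stimulated list, which enters the fold enrichment but not the pileup ratio. Inside the gene, stimulated peaks of 29 and 38 tags (34814607 to 34814768 and 34815242 to 34815567, fold enrichments 5.77 and 6.96) had no counterpart.

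Dusp1 had the most peaks in its window, 8 stimulated and 2 unstimulated, but was the nearest gene to only 2 of the stimulated ones and to none of the unstimulated ones. The others were nearest to Ergic1 or Neurl1b. Its gene body covers 2.88 kb of chromosome 17 (26505591 to 26508472, minus strand). The peak inside the gene (26508290 to 26508400), with its summit 133 bp after the start site, had 23 tags (0.560 per 1000000) and a fold enrichment of 3.72. The other, 8.15 kb past the 3′ end (26497353 to 26497779), had 37 tags and 3.96. Neither had an unstimulated counterpart. The shared sites 39.5 and 76.2 kb upstream were nearest to Ergic1, and the second lies inside it. The first had 51 stimulated and 34 unstimulated tags (ratio 1.94, 1.23 to 3.08). The second had 60 stimulated and 63 unstimulated tags (ratio 1.23, 0.848 to 1.78), the one site here with fewer stimulated than unstimulated tags before division by depth. Near the 100 kb limit, the stimulated peak just inside it lay 97.3 kb from Dusp1 (fold enrichment 2.80) and the one just outside it, not counted here, lay 107 kb from Dusp1 (4.30), both inside Ergic1.

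**Figure D2:**
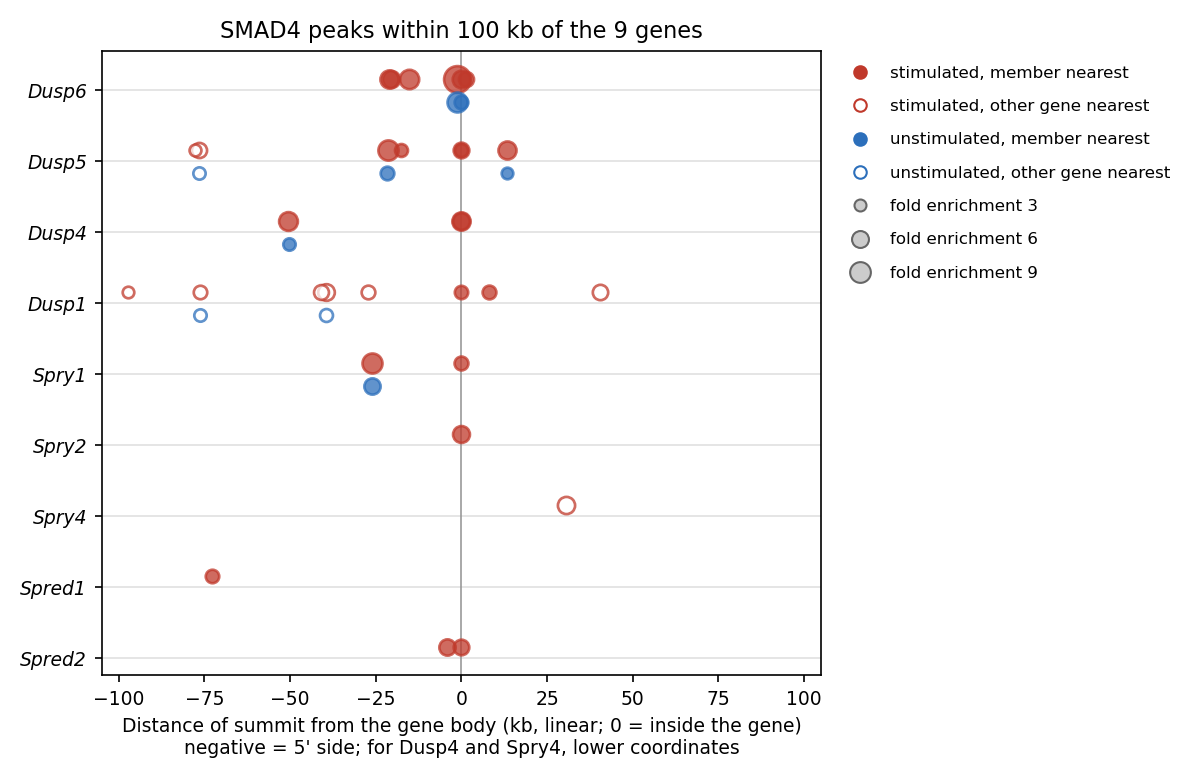
Peaks within 100 kb of each gene. The horizontal axis is the distance of the summit from the gene body in kb, the point area is proportional to the fold enrichment, red points (upper) are stimulated and blue points (lower) unstimulated, and open points have another protein-coding gene nearest. Dusp6, Dusp5, Dusp4, Dusp1 and Spry1 have points of both colours, while Spry2, Spry4, Spred1 and Spred2 have red points only.

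The Sprouty and Spred genes had fewer peaks than the phosphatase genes: 7 stimulated and 1 unstimulated peak at 5 genes, against 24 and 8 at 4 phosphatase genes. These counts include peaks with another gene nearest. Dusp1 was nearest to 2 of its 8 stimulated peaks, Dusp5 to 5 of 7 and Spry4 to 0 of 1. Spry1 on chromosome 3 (37639947 to 37644599, plus strand) held the shared site. It lay 26.1 kb upstream (stimulated 37613683 to 37614034), with 49 stimulated and 36 unstimulated tags (1.19 and 0.680 per 1000000) and a ratio of 1.76 (1.12 to 2.78). Fold enrichment was 8.33 in the stimulated and 5.52 in the unstimulated list. The Spry1 promoter peak shown above had its summit 101 bp before the start site, 19 tags (0.463 per 1000000) and a fold enrichment of 4.0, and was called in the stimulated list alone.

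At Spry2, Spry4, Spred1 and Spred2 no unstimulated peak was called within 100 kb. Spry2 (chromosome 14, minus strand) had a stimulated peak inside the gene, 803 bp after the start site (105895936 to 105896146), with 18 tags (0.439 per 1000000) and a fold enrichment of 5.95. Spred2 (chromosome 11, plus strand) had a promoter peak with its summit 246 bp before the start site (19924108 to 19924266, 34 tags, 5.07). A second Spred2 peak lay 4.08 kb upstream (19920214 to 19920506, 35 tags, 5.54). Spred1 (chromosome 2) had a single stimulated peak, 72.7 kb upstream (117048297 to 117048552, 18 tags, 3.8). The single peak in the window of Spry4 (chromosome 18, 38631644 to 38631794, 20 tags, 6.18) lay 30.4 kb away inside Arhgap26, so Spry4 was nearest to no peak. Pileups of 18 to 20 tags are among the lowest near the 9 genes, where the range over all 31 stimulated peaks was 0.439 to 1.49 per 1000000.

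**Figure D3:**
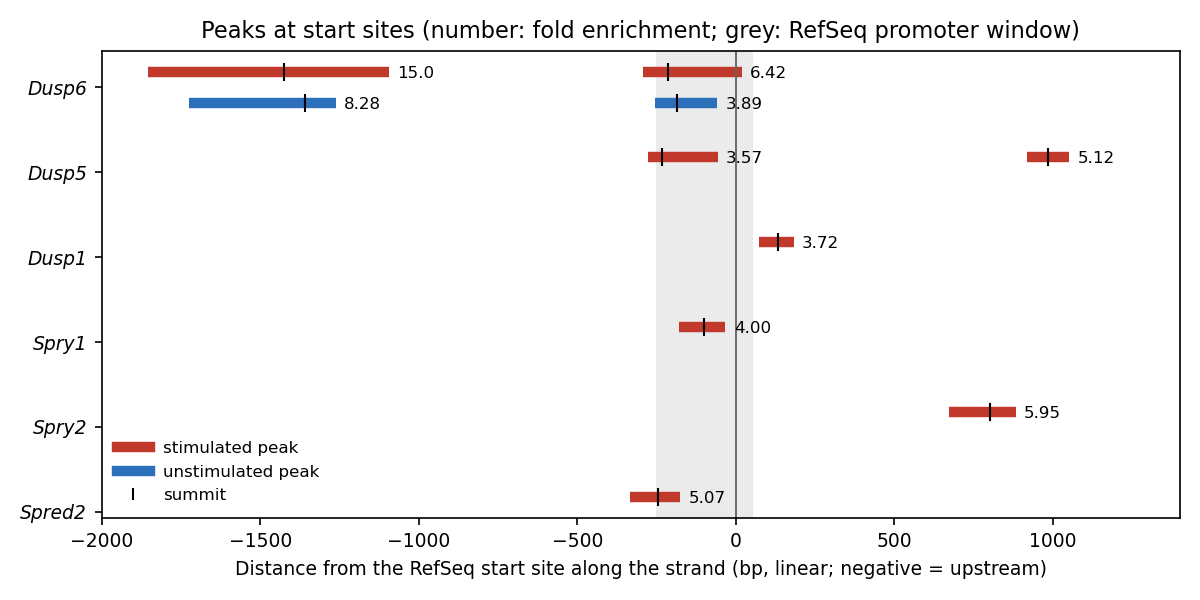
Peaks close to the RefSeq start sites. The horizontal axis is the distance from the start site along the strand in bp, red bars are stimulated and blue bars unstimulated peaks, black ticks are summits, the grey band is the RefSeq promoter window, and numbers are fold enrichments. Stimulated summits lie within 1000 bp of the start site at 6 genes, and unstimulated ones at Dusp6.

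Over the 9 genes, all 9 had a stimulated and 5 an unstimulated peak within 100 kb, against 36.5% and 13.1% of all protein-coding genes. As the nearest gene to such a peak, 8 had a stimulated and 4 an unstimulated one, against 12.2% and 3.79% of all genes. A stimulated peak overlapped, at least in part, the RefSeq promoter of 4 of the 7 genes in the table, against 3.14% of genes. An unstimulated peak overlapped that of 1, Dusp6, against 0.560% of genes. Summits within 1000 bp of a start site were found at 6 of the 7 genes in the stimulated list (Dusp6, Dusp5, Dusp1, Spry1, Spry2 and Spred2) and at 1 in the unstimulated list, against 4.37% and 0.789%. Since the genes were chosen with their peaks known, nothing is read from these differences from the background. Fold enrichment of the 31 stimulated peaks ran from 2.80 to 15.0 with a median of 5.12, against a median of 4.56 over all stimulated peaks. That of the 9 unstimulated peaks ran from 2.82 to 8.28 with a median of 3.50, against 4.0 over all unstimulated peaks.

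Of the 31 stimulated peaks, 9 (29.0%) overlapped an unstimulated peak, against 25.0% of all stimulated peaks, a share near the background. The 22 without a counterpart had a median fold enrichment of 4.83 (2.80 to 7.83), a median width of 226 bp and a median pileup of 0.719 per 1000000. The 9 with one had 6.81 (3.81 to 15.0), 312 bp and 1.22 per 1000000. The same split over all stimulated peaks is not given here, so this difference is not read as particular to these genes. The stimulated pool had 41044888 IP tags and the unstimulated pool 52971023. The part of depth in the missing counterparts was not tested, and pileups at sites that were not called were not analysed here.

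At the 9 shared sites the stimulated pileup per IP tag was the higher one, with ratios from 1.23 to 2.62 and a median of 1.65. The median over all 1078 shared pairs outside mitochondrial DNA was 1.47 (interquartile range 1.29 to 1.68). A ratio of 1.5 or more was reached by 7 of the 9, against 45.5% of all pairs. The counting interval lay above 1 at 5 of the 9, against 36.6% of all pairs. At the 6 shared sites with a member as the nearest gene the median was 1.70 and all 6 reached 1.5. Without division by depth 2 of the 9 reached 1.5, against 6.49% of all pairs.

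**Figure D4:**
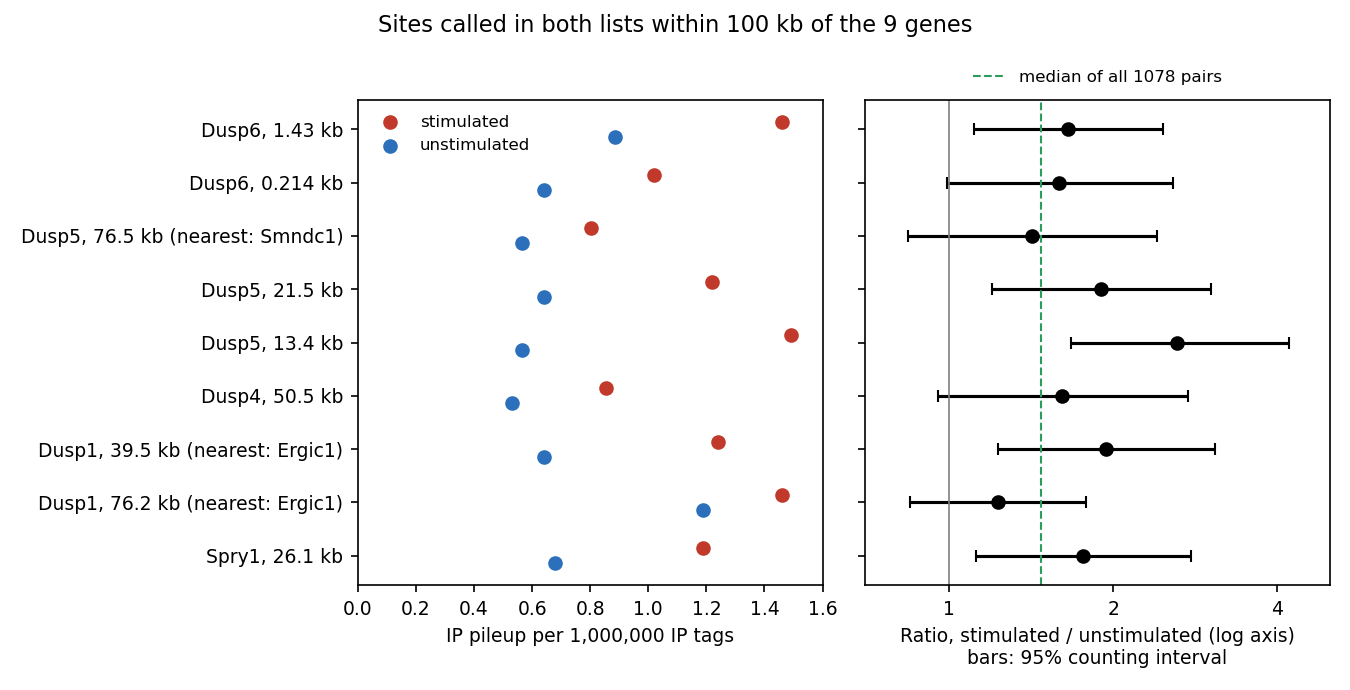
The 9 shared sites. Left, the IP pileup per 1000000 IP tags (red, stimulated; blue, unstimulated); right, their ratio on a log axis with its 95% counting interval and, dashed, the median over all 1078 pairs. Dusp5 at 13.4 kb has the highest ratio (2.62), and it is the one site whose interval (1.67 to 4.21) lies wholly above the overall median of 1.47.

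**Figure D5:**
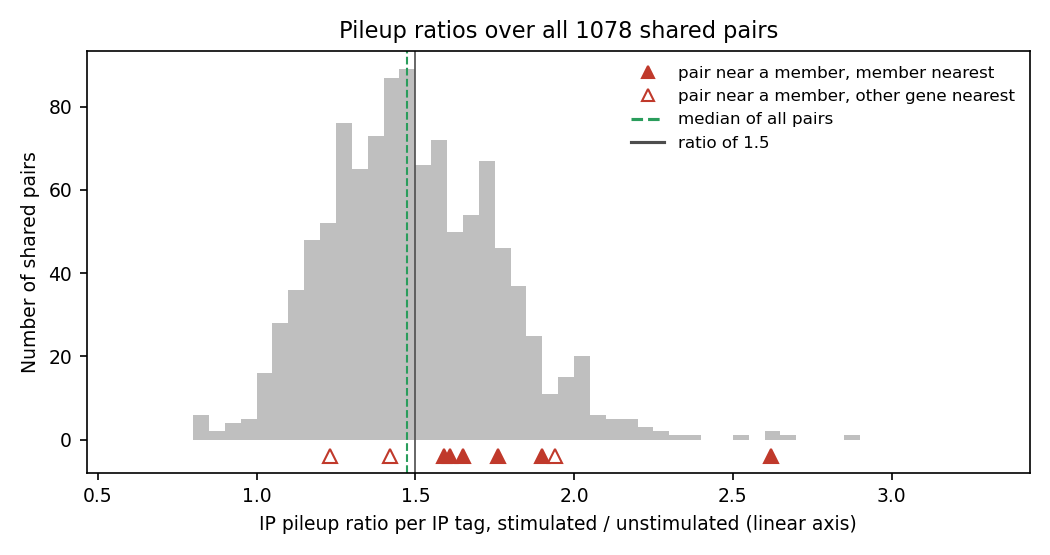
Histogram of the pileup ratio over all 1078 shared pairs (horizontal axis, linear; vertical axis, number of pairs). Triangles are the 9 sites near the members, open where another gene is nearest, the dashed line is the median of 1.47 and the solid line the ratio of 1.5. Of the triangles, 7 stand at or past 1.5.

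Other genes of the pathway were counted from lists of its parts. Of 8 further phosphatase genes of the family, 6 had a stimulated and 2 an unstimulated peak within 100 kb, and 1 gene (Dusp2) was nearest to such a peak in each list. Dusp3, which encodes a small phosphatase, had the highest stimulated fold enrichment (7.0), but 73.9 kb away and nearest to Meox1. Dusp2, a nuclear ERK phosphatase, had 6.75 only 0.0200 kb from its gene body, and its highest unstimulated value was 2.71, at another site 7.42 kb away. Dusp16, whose product acts on JNK and p38, had 4.0 in the stimulated and 5.6 in the unstimulated list, 58.8 and 58.7 kb away and nearest to Crebl2. Of 10 other feedback genes, 5 had a stimulated and 2 an unstimulated peak, and 3 and 0 were nearest to one. Stimulated fold enrichment was 5.50 inside Rasa1, which encodes a RAS inactivator, and 5.34 at 48.3 kb from Lrig1, an inhibitor of receptor tyrosine kinases. It was 4.29 (unstimulated 4.47) for Spred3, 68.3 kb away and nearest to Yif1b.

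Of 17 genes of the cascade itself, 8 had a stimulated and 3 an unstimulated peak, and 2 and 1 were nearest to one. The kinase genes Araf (7.0, inside the gene) and Map2k1 (6.71, 96.5 kb away and nearest to Lctl) had the highest stimulated fold enrichments. Their highest unstimulated values were 3.89 and 4.10. Of 19 ERK-responsive transcription factor and early response genes, 15 had a stimulated and 8 an unstimulated peak, and 12 and 3 were the nearest gene to one. The highest were at Ier3 (12.0, 18.4 kb away and nearest to Mdc1), Fos, which encodes an AP-1 subunit (10.3, 8.78 kb away), and Phlda1 (10.0, 0.133 kb away). Fos had an unstimulated value of 5.94 and Ier3 one of 3.72, the second at another site, and Phlda1 had no unstimulated peak. Of 6 FGF and EGF receptor genes, 3 had a stimulated and 0 an unstimulated peak, and 1 was nearest to a stimulated one. Fold enrichment was 7.51 for Fgfr2 (96.0 kb away, nearest to Ate1), 7.24 inside Fgfr1 and 4.43 for Fgfr3 (82.2 kb away, nearest to Nsd2). The counts of genes with a peak are to be set beside the 36.5% and 13.1% of all genes given above. Those of genes nearest to a peak are to be set beside 12.2% (stimulated) and 3.79% (unstimulated) of all genes. No list was tested.

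By the number of peaks, 29 genes had the same 6 stimulated and 2 unstimulated peaks within 100 kb as Dusp6. Closest to it in their highest stimulated fold enrichment were Poc1b (15.0), Mef2a (10.4), Hdac7, Rapgef3 and Slc48a1 (10.3 each). Poc1b is the neighbour of Dusp6 and shares its peaks, and Hdac7, Rapgef3 and Slc48a1 lie together on chromosome 15. The likeness rests on 2 lists and 2 counts.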

How the data were processed

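SMAD4 ChIP-seq peaks of MS1 cells were analysed from 1 deposited list per condition. Per the file headers, the authors called peaks with MACS2 2.1.0.20140616 on 2 merged IP libraries against 2 merged inputs, with 1 tag kept per position, 100 bp extension, sampling of the larger set down to the smaller, and a q cutoff of 0.01. The band width setting was 200 (stimulated) and 300 (unstimulated), per the file headers. Besides MACS2, the submitters' processing notes list mm10 and HOMER; for the aligner, "not given in the sources used here" applies. Pileup is a deposited coverage signal without depth scaling. The deposited fold enrichment is a ratio, pileup plus 1 over local background plus 1, and the deposited −log10 p-values and −log10 q-values compare IP with local background.

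Pileups were divided by the IP tags of the list (41044888 stimulated, 52971023 unstimulated, per the file headers) and given per 1000000. Peaks overlapping by 1 bp or more were paired, closest summits first, each used once, outside mitochondrial DNA. Intervals are exact binomial (Clopper-Pearson, 95%) on both pileups, converted to a ratio, and cover counting error within the pools only; they are not replicate errors. Solving the fold enrichment for local background gave Poisson tails that matched the deposited p-values to within 0.000987% on the −log10 scale. Genes and promoters are RefSeq GRCm38.p6. The promoter table held 7 of the 9 genes, without Dusp4 and Spry4, and start sites and strands come from it. Of the 8 samples, no values per library were analysed here. Tools were Python 3.11.15, pandas 2.3.3, numpy 2.4.6, scipy 1.17.1 and matplotlib 3.10.9, tested on simulated data. Members and lists were chosen with earlier results of these data known. Genes named outside the members are the nearest genes to peaks, the 3 of highest stimulated fold enrichment per list (1 of them is not reported here), and the 5 most like Dusp6 by peak counts.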

Additional observations from a re-analysis of the deposited data

How the results depend on the processing

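No paired analysis was possible because the authors merged the 2 libraries of each kind before calling peaks, and leaving out a replicate could not be run for the same reason. Of 46 recomputed values 37 stayed within 1.5 times the count, the spread over the 9 sites or the counting interval, and 9 did not. Direction was compared only for the median ratio and the ratios at the Dusp6 sites, and none of these changed direction. The counts have no direction. A −log10 q minimum of 10 removes peaks by construction. It left 18 stimulated and 3 unstimulated peaks near the genes, 5 and 2 genes nearest to one, 3 genes with an unstimulated peak (Dusp6, Dusp1 and Spry1) and 3 shared sites. At that minimum 6 genes had a stimulated peak, and the shares of all genes with a stimulated and an unstimulated peak were 17.1% and 4.92%. With the stimulated list shortened to the 1133 peaks of lowest p, 15 stimulated peaks and 5 nearest genes were left, and 6 genes had a peak (Dusp6, Dusp5, Dusp4, Dusp1, Spry1 and Spred2), against 13.3% of all genes. The number of stimulated peaks around Dusp6 was then 5. Pileups with no scaling to depth left 2 sites at a ratio of 1.5 or more. The lowest ratio was then 0.952, so below 1, at the Dusp1 site 76.2 kb away, whose scaled ratio was 1.23. Windows of 50 and 200 kb gave 25 and 45 stimulated and 6 and 11 unstimulated peaks.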
